A study of Mus musculus with 16 samples.

Results

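The 9 genes described here are *Lin28b*, *Hmga1*, *Hmga2*, *Igf2bp1*, *Igf2bp2*, *Igf2bp3*, *Arid3a*, *Arid3b* and *Plagl2*, genes of the fetal growth program that are known for being held down by the let-7 microRNAs. They were taken by name from 48397 gene symbols, each with a read count in all 16 RNA libraries. The libraries come from primary hippocampal neurons of wild type CD1 mouse pups, taken 0 to 2 days after birth, with 4 libraries in each of 4 groups. The methods describe the libraries of a group as independent neuronal cultures. The control neurons received 10-fold concentrated medium of immortalized Apoe-/- astrocytes, and the other groups received the same kind of medium from immortalized astrocytes homozygous for a human *APOE* allele, which carries apoE2, apoE3 or apoE4 lipoproteins. The methods add 25-hydroxycholesterol to the astrocytes' medium. All 4 groups therefore share astrocyte medium, given at 10 and 13 days in vitro (DIV), and all were also given AraC at 3 DIV, which acts against dividing cells, before RNA was taken at 17 DIV. Each medium came from a cell line, so that a difference between isoforms and a difference between lines cannot be told apart.

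The let-7 microRNAs accumulate as cells leave the proliferating state, and they lower the RNA and protein of genes whose 3′UTR pairs with the seed, the bases near the 5′ end of the microRNA. LIN28B opposes them by blocking the maturation of their precursors, and its own RNA is one of their targets, so that the pair forms a switch between fetal and mature growth programs. HMGA1 and HMGA2 are chromatin proteins that bend DNA, IGF2BP1, IGF2BP2 and IGF2BP3 bind RNA and affect its stability and transport, ARID3A and ARID3B bind AT-rich DNA, and PLAGL2 is a zinc finger transcription factor. In the brain most of these genes are known from progenitor cells and early neurons.

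The mature microRNAs show why the 9 genes are treated as a group, since 10 of the 11 mature let-7 names in the RefSeq table (build GRCm38.p6) had the same bases at positions 2 to 8. The capitals mark that seed in 4 of them.
let-7a-5p: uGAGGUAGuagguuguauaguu
let-7b-5p: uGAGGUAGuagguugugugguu
let-7i-5p: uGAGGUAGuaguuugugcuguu
miR-98-5p: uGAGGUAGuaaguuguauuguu

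A 3′UTR that pairs with this seed holds the letters CTACCTC, and the match is 8 bases long where an A follows. Searched on the transcribed strand of the longest annotated 3′UTR of each gene (GENCODE M21, build GRCm38), the 7-base match stood in 9.12% and the 8-base match, which contains it, in 3.08% of 20401 genes. Each of the 9 genes held at least 1 match. *Lin28b*, *Hmga2* and *Igf2bp1* held 4 each, *Arid3a* held 2 and the other 5 held 1. The sites below are those of *Igf2bp1* and *Plagl2*, the genes whose RNA differed between the groups, and the 8-base sites of *Hmga2* and *Lin28b*, with the match in capitals.
Igf2bp1, chr11:95961768-95961797, minus strand: gtgcgaagtaaaCTACCTCAaggtgtgaag
Igf2bp1, chr11:95959347-95959376, minus strand: cagtgctattaaCTACCTCAgccccagagg
Igf2bp1, chr11:95958753-95958782, minus strand: taaatggatgaaCTACCTCAgtcctcacag
Igf2bp1, chr11:95958130-95958159, minus strand: tttggttttaatCTACCTCttagcaaaaca
Plagl2, chr2:153229888-153229917, minus strand: agaaacacacttCTACCTCtttactgttaa
Hmga2, chr10:120364214-120364243, minus strand: gacattcaatttCTACCTCAgcatcagttg
Lin28b, chr10:45381012-45381041, minus strand: cgggcgggaagtCTACCTCAtgcaagcaca

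*Igf2bp1* thus had 3 matches of 8 bases and 1 of 7, and *Plagl2* had 1 of 7 bases. Longer 3′UTRs hold the letters more often. The 3′UTR of *Igf2bp1* is 6337 bases long, at percentile 98.2 of all genes, and among 236 genes of like length 36.0% held a 7-base match and 12.7% an 8-base one. For *Plagl2*, with 3730 bases, the 7-base share among 847 genes of like length was 23.0%. The shortest 3′UTR of the 9, that of *Hmga1* with 1183 bases, had 1 match of 7 bases, against a share of 8.5% among 1360 genes of like length.

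**Figure D1:**
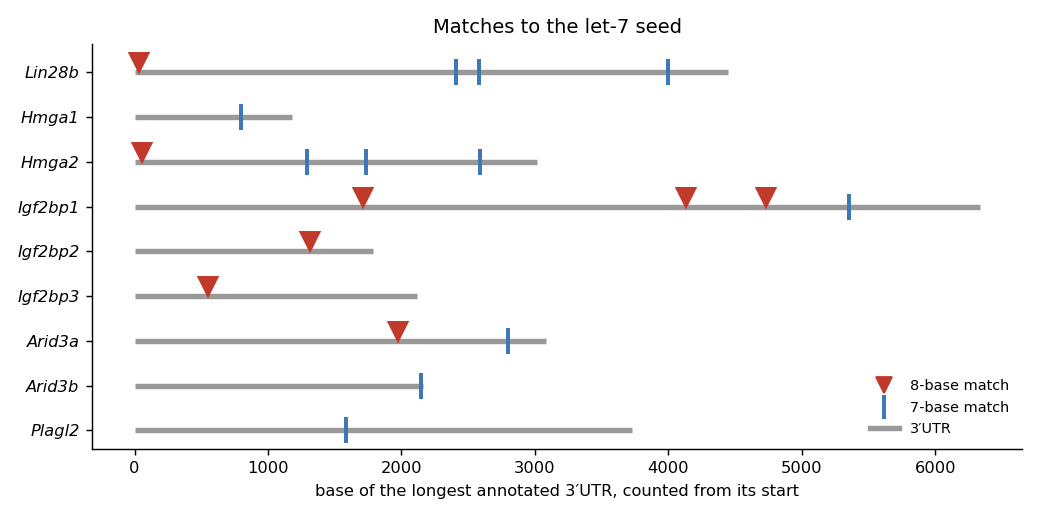
Each grey bar is the longest annotated 3′UTR of a gene, drawn to scale in bases from its start, with 8-base matches to the let-7 seed as red triangles and 7-base matches as blue ticks. The bar of *Igf2bp1* is the longest at 6337 bases and carries 4 matches, of which 3 have 8 bases.

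The libraries had 14087723 to 34248172 reads on genes, and levels are given in CPM, the count of a gene relative to the library total as scaled by edgeR's TMM method, so that 3 counts correspond to 0.0876 to 0.213 CPM. In apoE2 replicate 4 and apoE4 replicate 2 a smaller share of reads was unaligned or fell on no single gene (38.4 and 38.6%, up to 73.7% elsewhere), and results that turn on these libraries are also given without them. Neuronal markers were abundant in every library, led by *Map2* and *Snap25*. Over 8 markers they had 3640 to 5520 CPM in the control, 3930 to 6180 with apoE2, 2800 to 5560 with apoE3 and 2980 to 5560 with apoE4. The sum of 8 astrocyte markers was lower in every library but apoE3 replicates 1 and 4 and apoE4 replicate 4. There it was 3790, 5580 and 4670 CPM, against 3630, 2800 and 2980 CPM for the neuronal markers. A gene was tested where at least 4 libraries reached 0.450 CPM, the level of 10 counts in a library of median depth, and 17038 genes passed. Of the 9 genes 7 passed and *Lin28b* and *Hmga2* did not. *Igf2bp1* passed through its 4 apoE4 libraries and 2 apoE3 libraries, with no control or apoE2 library at that level, so that its passing already depended on a difference between groups.

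The RNA of *Igf2bp1* was nearly absent from the control neurons and present in every library treated with apoE4 lipoproteins. IGF2BP1 is the family member that binds the beta-actin message and carries it into growing neurites. The 4 control libraries held 5, 2, 0 and 7 reads of it, and the 4 apoE2 libraries 0, 2, 2 and 4 reads. The apoE3 libraries held 10, 3, 5 and 17 reads. The apoE4 libraries held 208, 200, 113 and 222 reads. No apoE4 library overlapped with any of the 12 others, while the control and apoE2 libraries lay at or near the limit that 3 counts set.

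On the CPM scale the level of *Igf2bp1* was 0.169 ± 0.162 in the control, 0.0637 ± 0.0441 with apoE2, 0.548 ± 0.475 with apoE3 and 9.34 ± 4.05 with apoE4 (SD, n = 4 each). From the lowest level up, apoE2 and control overlapped, control and apoE3 overlapped, and apoE3 and apoE4 did not. Against the control, *Igf2bp1* rose with apoE4 by 5.83 ± 0.85 on the log2 scale, 57.0-fold, with an adjusted p of 0.00787 (edgeR's quasi-likelihood test, Benjamini-Hochberg over all genes tested). In this comparison 0.194% of all genes tested were called. With the replicate number as a block, since libraries of the same number deviated together, the difference was 5.93 ± 0.42 with an adjusted p of 3.52e-06. Without any filter on low counts, where *Igf2bp1* did not have to pass a level, it was 5.82 with an adjusted p of 0.00558. The call was lost in a fit of the control and apoE4 libraries alone (5.83, adjusted p 0.0993) and without control replicate 2 (5.61, adjusted p 0.0508), and it was kept without each of the 15 other libraries. Over single libraries left out the difference ran from 5.37 (without control replicate 3, which held 0 reads) to 6.52 (without control replicate 4). In bulk RNA more cells with *Igf2bp1* RNA and more of that RNA per cell cannot be told apart.

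The same gene set the apoE4 libraries apart from those with the other isoforms. Against apoE2 the difference in *Igf2bp1* was 6.91 ± 0.91 (log2, adjusted p 0.00399), where 0.252% of all genes were called. Against apoE3 it was 4.16 ± 0.77, 17.8-fold, with an adjusted p of 0.0504 that just missed the threshold, where 0.147% of all genes were called. Without single libraries it ran from 3.8 to 4.82, the highest without apoE3 replicate 4. Without apoE4 replicate 2 (4.34, adjusted p 0.0476) or control replicate 3 (4.15, adjusted p 0.027) it passed. With the replicate block the difference to apoE3 was 4.29 ± 0.36 with an adjusted p of 4.48e-05, and 1.76% of all genes were called. Within the 4 replicate numbers the apoE4 library was the higher one in 4 of 4 pairs in each of these comparisons.

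*Igf2bp1* was also higher with apoE3 than with apoE2, with no overlap in CPM between the 4 and 4 libraries. The read counts did overlap, with 3 reads (0.123 CPM) in apoE3 replicate 2 and 4 reads (0.102 CPM) in apoE2 replicate 4. Both lie near the limit of 3 counts. The difference was 2.75 ± 0.90 on the log2 scale and did not pass the test (adjusted p 1.0, unadjusted 0.00808). With the block edgeR gave 2.64 ± 0.63 (adjusted p 0.053), and DESeq2 with the block called it (2.7 ± 0.67, adjusted p 0.00549). Of all genes 0.698% were higher with apoE3 without overlap. Against the control, the values with apoE3 gave 1.68 ± 0.83 (adjusted p 0.78), and those with apoE2 gave -1.08 ± 0.97 (adjusted p 1.0). For apoE3 the block gave an adjusted p of 0.0718 in edgeR and a call in DESeq2 (1.65 ± 0.57, adjusted p 0.0282).

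*Plagl2*, at a lower fold, was the other gene whose 4 apoE4 libraries lay above all 12 others. Of all genes tested 0.382% had that order, and these 2 of the 7 tested among the 9. The 2 shares are no test, since the 9 genes were chosen with earlier results of these data known. *Igf2bp1* also passed the filter only through apoE4 and apoE3 libraries. The control libraries had 3.46, 3.02, 1.78 and 2.72 CPM of *Plagl2*, the apoE2 libraries 2.47, 2.25, 2.72 and 1.86 CPM, and the apoE3 libraries 2.67, 2.87, 2.36 and 2.95 CPM. The apoE4 libraries had 8.88, 4.39, 5.26 and 6.41 CPM. The 3 groups without apoE4 overlapped with each other, and within apoE4 replicate 1 was the highest, as it was for *Igf2bp1*.

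Against apoE2 *Plagl2* rose by 1.42 ± 0.25 on the log2 scale, 2.68-fold, with an adjusted p of 0.0303. Against the control the difference was 1.18 ± 0.25, 2.27-fold, with an adjusted p of 0.0985, and with the replicate block it was 1.17 ± 0.21 with an adjusted p of 0.0062, where 3.3% of all genes were called. Against apoE3 it was 1.2 ± 0.25 with an adjusted p of 0.126, and with the block 1.15 ± 0.22 with an adjusted p of 0.0121. Without the block the call against apoE2 was lost when apoE2 replicate 4 and apoE4 replicate 2 were left out together (1.44, adjusted p 0.0532), and without any 1 of 8 libraries (all 4 of apoE2, apoE4 replicates 1 and 4, apoE3 replicate 1 and control replicate 4; adjusted p of 0.0503 to 0.128). Against the control, leaving out apoE4 replicate 2 gave a call (1.32, adjusted p 0.0428). With the block and without apoE2 replicate 4 and apoE4 replicate 2 the difference to apoE2 was 1.41 with an adjusted p of 0.00441. Between apoE3 and control *Plagl2* differed by -0.02 ± 0.25 and between apoE2 and control by -0.24 ± 0.25.

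**Figure D2:**
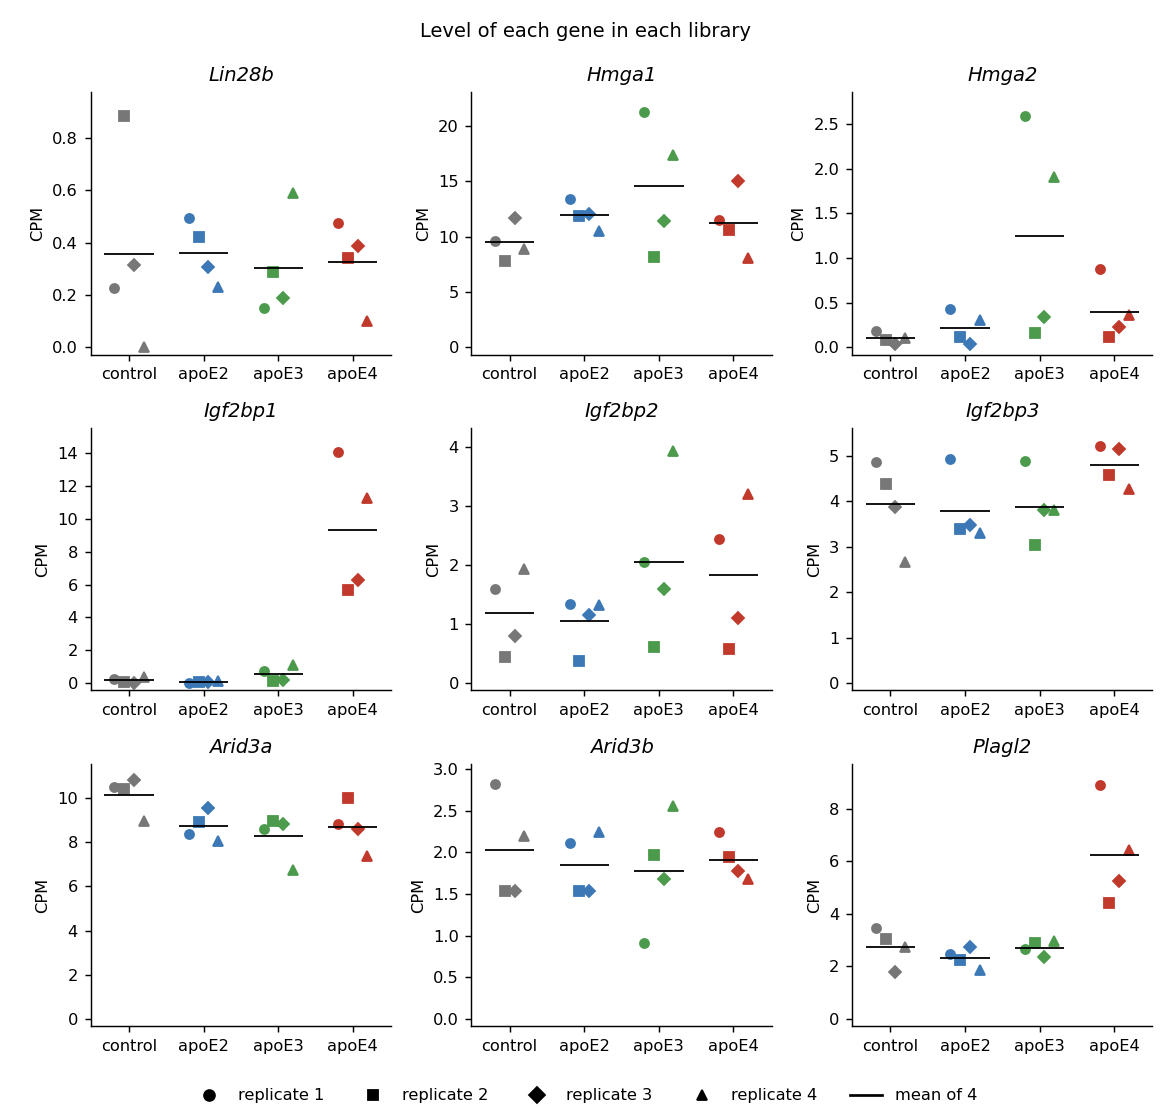
Each panel shows 1 gene, with a point for each library in CPM (linear axis), a symbol for each replicate number and a line at the mean of 4. The apoE4 points stand above all others for *Igf2bp1* (5.70 to 14.1 CPM) and *Plagl2* (4.39 to 8.88 CPM), while apoE4 and control overlap for the other 7 genes. *Hmga2* reaches 2.59 and 1.90 CPM in 2 apoE3 libraries.

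The other IGF2BP genes passed edgeR's test over all 16 libraries in no comparison, with or without the block. *Igf2bp2* had 1.59, 0.443, 0.803 and 1.94 CPM in the control libraries and 2.44, 0.570, 1.11 and 3.21 CPM in the apoE4 libraries. With apoE3 it had 2.06, 0.615, 1.6 and 3.94 CPM, and with apoE2 1.34, 0.382, 1.15 and 1.32 CPM. The order followed the replicate number rather than the group. Replicate 2 was the lowest library of each of the 4 groups, and the ranges were 0.382 to 0.615 CPM in replicate 2 and 1.32 to 3.94 CPM in replicate 4. Of the variance of its log2 CPM 80.3% lay between replicate numbers and 14% between groups, against medians of 56.1% and 14.4% over all genes tested. The difference of apoE4 to the control was 0.61 ± 0.64 (log2, adjusted p 1.0), with the apoE4 library higher in 4 of 4 replicate numbers, and 0.58 ± 0.25 with the block (adjusted p 0.256). The apoE3 libraries were also higher than the control libraries of the same replicate number in 4 of 4 pairs, by 0.75 ± 0.25 (log2) in edgeR with the block (adjusted p 0.0614). Without apoE2 replicate 4 and apoE4 replicate 2 this was 0.74 with an adjusted p of 0.0457.

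*Igf2bp3* ranged from 4.27 to 5.22 CPM with apoE4 and from 2.67 to 4.86 CPM in the control neurons, and the groups overlapped. The difference was 0.28 ± 0.22 (log2, adjusted p 1.0), with the apoE4 library higher in 4 of 4 replicate numbers. Its value is uncertain, since 18.7% of its exon bases are overlapped on the other strand by *Malsu1* and no source used here says whether the counting used strand.

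**Figure D3:**
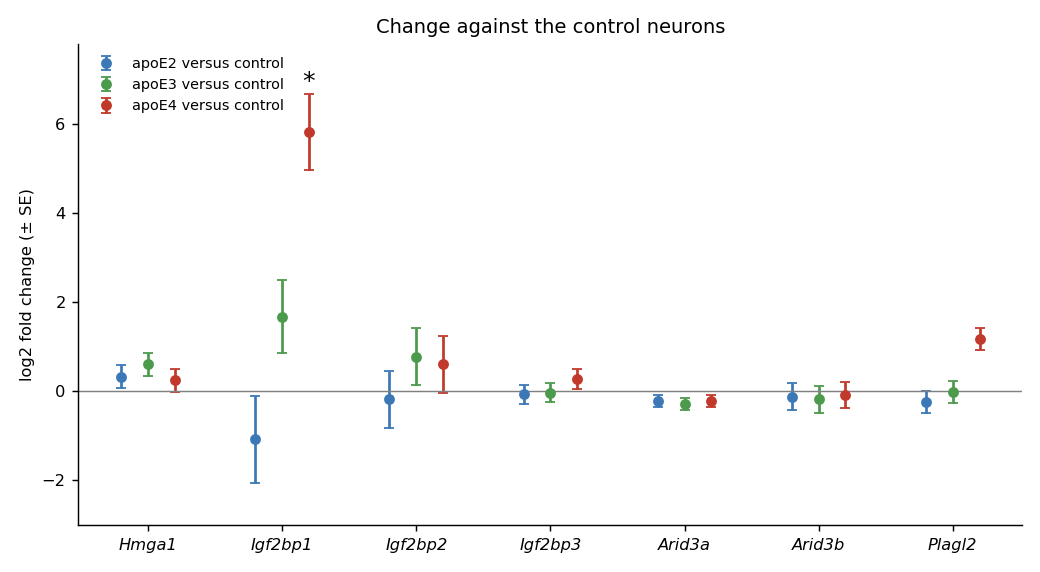
Points are log2 fold changes against the control neurons from edgeR over all 16 libraries, with bars of 1 standard error, for the 7 genes that passed the low-count filter, and an asterisk marks an adjusted p under 0.05. The asterisk stands over *Igf2bp1* with apoE4 (5.83), and *Plagl2* with apoE4 lies at 1.18 without one.

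*Hmga2*, the HMGA protein of fetal stem and progenitor cells, was at the limit of detection in most libraries. It had 4, 2, 1 and 2 reads in the control, 6, 3, 1 and 12 with apoE2, 34, 4, 9 and 29 with apoE3, and 13, 4, 4 and 7 with apoE4. In CPM the apoE3 libraries had 2.59, 0.164, 0.343 and 1.90, so that replicates 1 and 4 stood above all other libraries and replicate 2 lay within the range of the control. The mean was 1.25 ± 1.19 CPM with apoE3 and 0.100 ± 0.0615 CPM in the control (SD, n = 4). The exact two-sided permutation test of these means gave p = 0.0571, and that of apoE4 (0.393 ± 0.340 CPM) against the control also p = 0.0571, where the 70 arrangements of 4 and 4 libraries cannot go below 0.0286. Adjusted over the 12 such tests of *Hmga2* and *Lin28b* both were 0.343.

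In an edgeR fit with no filter on low counts *Hmga2* differed by 3.52 ± 0.92 between apoE3 and control (log2, unadjusted p 0.00129, adjusted p 0.647), and the library with apoE3 was higher in 4 of 4 replicate numbers. DESeq2 with the replicate block called it (3.34 ± 0.68, adjusted p 3.5e-05), and without the block DESeq2 gave an adjusted p of 0.0533. When apoE2 replicate 4 and apoE4 replicate 2 were left out *Hmga2* passed the filter, and edgeR with the block called it (3.33 ± 0.51, adjusted p 0.000892) but without the block did not (3.52 ± 0.95, adjusted p 0.606). The values with apoE4 stood in the same order of replicate numbers, with 0.881, 0.114, 0.221 and 0.356 CPM. Summed over 10 markers of neural progenitors, of which none was at 0 in any library, the level was 2860 and 4370 CPM in apoE3 replicates 1 and 4, and 503 and 1250 CPM in replicates 2 and 3. In replicates 1 to 4 of the other groups it was 1680, 402, 1180 and 3470 CPM with apoE4 and 1830, 390, 971 and 1650 CPM with apoE2. In control replicates 1 to 4 it was 1010, 319, 801 and 1590 CPM. The part of progenitors in the level of *Hmga2* was not tested.

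*Hmga1*, its more widely expressed relative, was the most abundant of the 9 per length of exon, with 4.47 ± 0.784 CPM per kb in the control. It had 9.59, 7.77, 11.7 and 8.90 CPM in the control, 13.4, 11.9, 12.1 and 10.5 CPM with apoE2, 21.3, 8.16, 11.4 and 17.4 CPM with apoE3 and 11.5, 10.6, 15 and 8.04 CPM with apoE4. Again apoE3 replicates 1 and 4 were the highest of all, and every pair of groups overlapped. The difference of apoE3 to the control, 0.61 ± 0.26 (log2), did not pass the test (adjusted p 0.767, unadjusted 0.0336; 0.101 adjusted with the block).

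*Lin28b* RNA, whose protein holds back the maturation of let-7, was scarce in all groups. The libraries held 5, 22, 9 and 0 reads in the control, 7, 11, 8 and 9 with apoE2, 2, 7, 5 and 9 with apoE3 and 7, 12, 7 and 2 with apoE4. The means were 0.357 ± 0.377, 0.362 ± 0.118, 0.305 ± 0.199 and 0.326 ± 0.160 CPM (SD, n = 4). The smallest p over its 6 comparisons was 0.657 (exact two-sided permutation test), and 36 reads or fewer per group cannot decide on small differences. The relative *Lin28a* was lower still, with 0.0102 to 0.0527 CPM on average.

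*Arid3a* had lower mean levels with each isoform than in the control. It had 10.5, 10.4, 10.8 and 8.96 CPM in the control, 8.39, 8.90, 9.54 and 8.06 CPM with apoE2, 8.61, 8.98, 8.84 and 6.76 CPM with apoE3 and 8.81, 10.0, 8.58 and 7.38 CPM with apoE4. In each replicate number the control library was the highest of the 4, but the ranges of the groups overlapped, since replicate 4 was the lowest library of each group. Against the control apoE2 gave -0.22 ± 0.14, apoE3 -0.29 ± 0.14 and apoE4 -0.22 ± 0.14 (log2), at adjusted p of 1.0, 0.77 and 1.0. With the replicate block apoE3 gave -0.30 ± 0.10 with an adjusted p of 0.0682, and DESeq2 with the block called it (adjusted p 0.0463). Without apoE2 replicate 4 and apoE4 replicate 2, edgeR with the block gave -0.31 for apoE3 with an adjusted p of 0.0498.

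*Arid3b* ranged from 0.914 to 2.82 CPM over all 16 libraries, and the groups overlapped in every comparison. It differed from the control by -0.12 ± 0.30 with apoE2, -0.18 ± 0.30 with apoE3 and -0.08 ± 0.30 with apoE4 (log2, adjusted p of 0.892 and above).

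Counted over the 7 genes that passed the filter, apoE4 against the control called 1, against apoE2 2 and against apoE3 0, where 0.194, 0.252 and 0.147% of all genes were called. With the block it called 2 of the 7 in each of these 3 comparisons, where 3.3, 4.44 and 1.76% of all genes were called. DESeq2 and the fits without 2 libraries, given next, also took in genes under that filter. ApoE2 against the control called none (edgeR; 0 at an unadjusted p under 0.05, and 0 by DESeq2), where 0.0% of all genes were called by edgeR and 0.159% by DESeq2. ApoE3 against the control called 0 as well, where 0.00587% of all genes were called. *Hmga1* and *Arid3a* had an unadjusted p under 0.05 there, and edgeR with the block called 0, where 11.7% of all genes were called. DESeq2 called 0 without the block, against 0.278% of all genes, and 3 with it (*Arid3a*, *Hmga2* and *Igf2bp1*), against 16% of all genes. Between apoE3 and apoE2 edgeR called 0, where 0.0% of all genes were called. DESeq2 called 0 without the block (0.0145% of all genes) and *Hmga2* and *Igf2bp1* with it (2.06%), and *Igf2bp1* alone of the 7 genes had an unadjusted p under 0.05 in edgeR. Without apoE2 replicate 4 and apoE4 replicate 2, edgeR with the block called 3 with apoE3 against the control (15.8% of all genes), 2 with apoE4 against the control (5.61%), against apoE3 (3.08%) and against apoE2 (3.73%), and 3 in the test of any difference (14.2%). In the test of any difference among the 4 groups *Igf2bp1* (adjusted p 0.00174) and *Plagl2* (0.045) were called, where 0.229% of all genes were called. At a change of 2-fold or more and an unadjusted p under 0.05, the cut-offs of the study applied here to edgeR's p and not to that of the study's own test, *Igf2bp1* and *Plagl2* passed with apoE4 against the control, where 1.04% of all genes passed as higher. Without apoE4 replicate 1 *Plagl2* was at 0.96 (log2) and no longer passed. The 9 genes were chosen with earlier results of these data known, so that none of these counts is a test of the group.

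**Figure D4:**
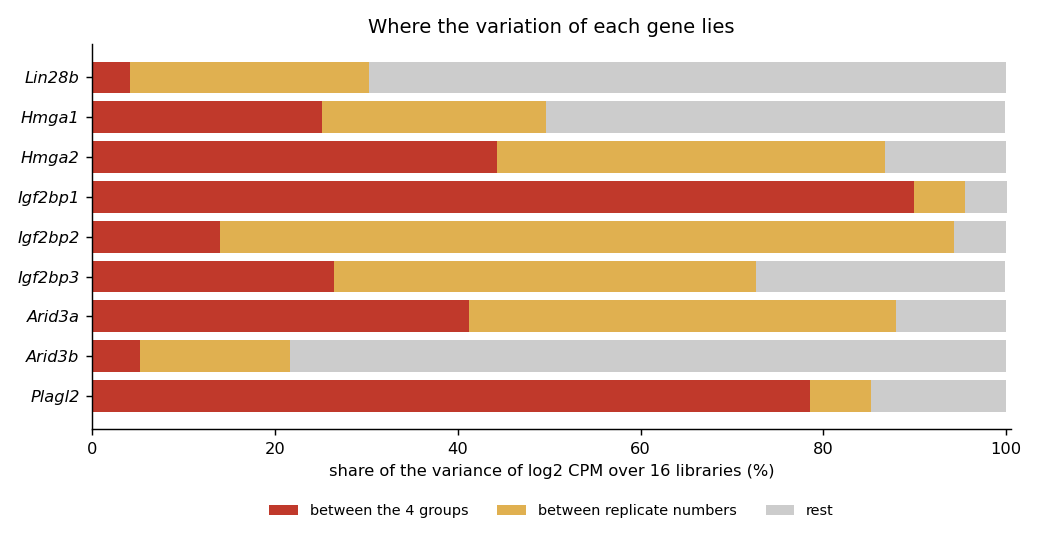
Bars divide the variance of log2 CPM of each gene over 16 libraries, in percent, into the part between the 4 groups, the part between replicate numbers and the rest. The part between groups is 89.9% for *Igf2bp1* and 78.5% for *Plagl2*, while for *Igf2bp2* the part between replicate numbers is 80.3%.

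*Igf2bp1* and *Plagl2* also varied together across the libraries, with r = 0.921 over 16 libraries after the means of the replicate numbers were subtracted. The value is a description, since the 2 genes share the libraries and the step from the other groups to apoE4. *Hmga2* varied with *Hmga1* (r = 0.74) and *Igf2bp2* (r = 0.65) and opposite to *Arid3a* (r = -0.763), and *Lin28b* had no r above 0.484 with any of the others. Over all genes tested the patterns most like *Igf2bp1* were those of *Eif4ebp2* (r = 0.975), which restrains cap-dependent translation, *Gm340* (r = 0.971) and *Gxylt1* (r = 0.962), which adds xylose to Notch. *Eif4ebp2* had 5.17 to 7.55 CPM in the control and 85.9, 29.8, 38.0 and 58.0 CPM with apoE4. Its longest 3′UTR, of 5306 bases, held no let-7 match, and that of *Gxylt1*, of 5412 bases, held 1 of 8 bases. The patterns most like *Hmga2* were *Fzd10* (r = 0.942), *Pak4* (0.941) and *Prex1* (0.927), none with a match, and those most like *Lin28b* were *Gm37331* (0.865), *Tspan14* (0.858) and *Gm23455* (0.851).

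Other genes described as let-7 targets gave 1 call of the same kind. Of 47 listed genes 44 were tested, and *E2f2*, a transcription factor that drives entry into S phase, was the 1 called with apoE4 against the control, where 0.194% of all genes were called. It had 0.273, 0.241, 0.628 and 0.367 CPM in the control and 7.59, 2.51, 3.10 and 5.85 CPM with apoE4, and did not overlap with any other group. The difference was 3.62 on the log2 scale (adjusted p 0.0283), and against apoE2 it was 3.90 (adjusted p 0.0154). Against apoE3 it was 2.4 and was not called (edgeR, adjusted p 0.306), and with the block it was 2.44 (adjusted p 0.00532). The call against the control was lost without any 1 of 7 libraries (the 4 controls, apoE3 replicate 1 and apoE4 replicates 1 and 4; adjusted p of 0.056 to 0.147), and that against apoE2 without any 1 of 4 (apoE2 replicates 1, 2 and 4 and apoE4 replicate 1; 0.0584 to 0.0934). Against the control it was 3.45 with the block, with an adjusted p of 0.000449. DESeq2 called *Cdk6*, *E2f2*, *Igf1r* and *Usp44*, where 0.384% of all genes were called. The median log2 fold change of the 44 was 0.17 with apoE4 and 0.18 with apoE3, against 0.00 and 0.02 for all genes tested, and 28 and 30 of the 44 were above 0. With apoE2 the median was -0.01, with 20 of the 44 above 0.

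With the replicate block 7 of the 44 were called with apoE4, all higher, where 3.18% of all genes were called higher: *E2f2*, *Cdk6*, *Igf1r*, *Fas*, *Bach1*, *Nr2e1* and *Ddi2*. *Cdk6*, the G1 kinase, gave 1.92 (log2) with an adjusted p of 0.232 without the block and 8.9e-06 with it, and *Igf1r*, the receptor for IGF1, gave 0.62 with 0.163 and 0.0153. With apoE3 none was called without the block (4 at an unadjusted p under 0.05, 0 by DESeq2), and the block called 11, all higher, among them *Ccnd1* (1.01 with the block, adjusted p 0.00406) and *Thbs1* (0.92, 0.0242), where 7.95% of all genes were called higher. *Cdk6*, *Fas*, *Bach1* and *Nr2e1* were called with both isoforms, which share the control libraries. *Usp44*, of the same list, was under the filter and was picked out after its values were seen. It had 1.49, 0.200, 1.05 and 2.29 CPM with apoE4 and at most 0.152 CPM in any other library.

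**Figure D5:**
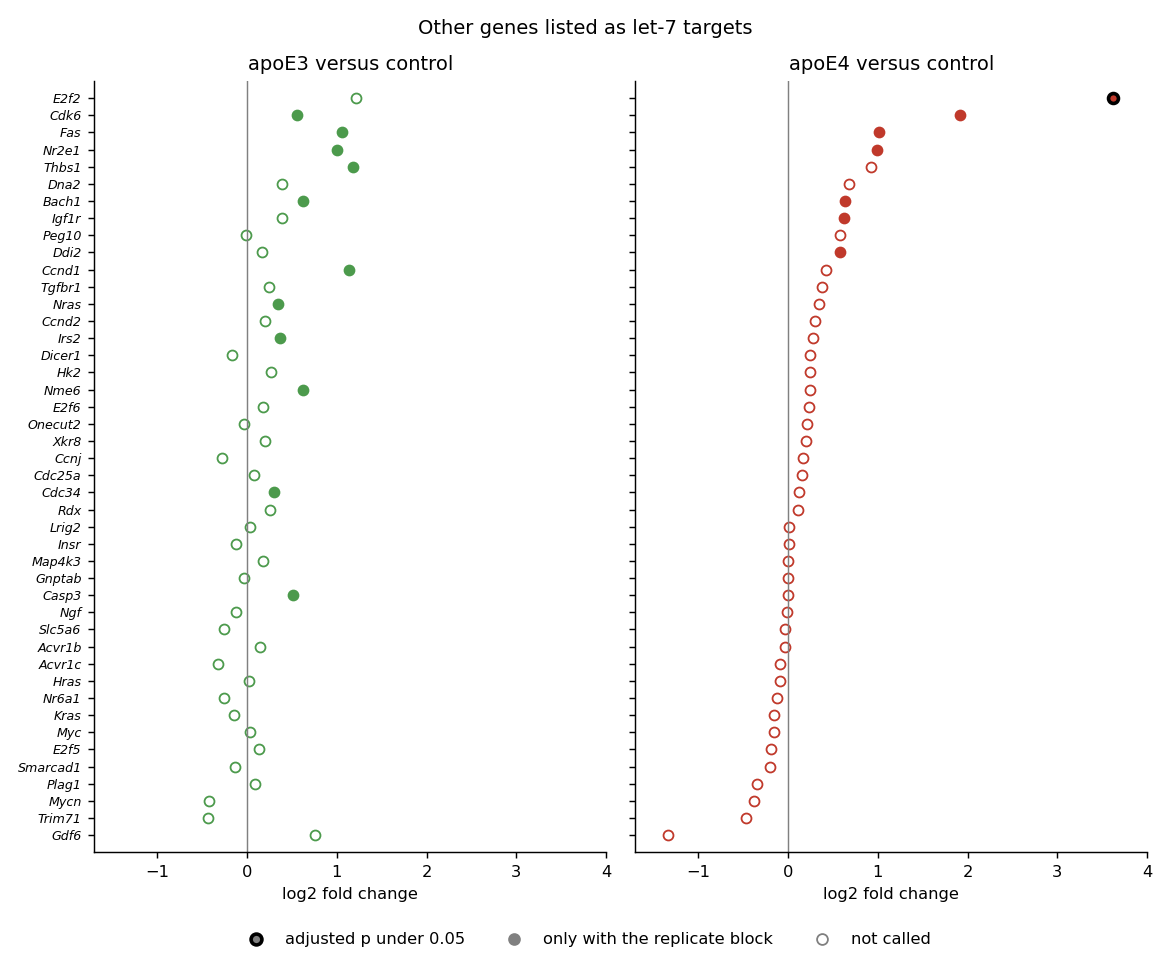
Points are log2 fold changes of the 44 tested genes of the list of other let-7 targets, with apoE3 on the left and apoE4 on the right, sorted by the value with apoE4. A black rim marks a call without the replicate block (*E2f2*, 3.62), a filled point a call with the block alone, and an open point no call.

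Among the genes that make and remove let-7, of 19 tested none was called by edgeR without the block in any comparison, with 1 at an unadjusted p under 0.05 and 0 called by DESeq2 with apoE4 against the control, and the median log2 fold change with apoE4 was -0.02. *Drosha* had 65.2 CPM in the control and 65.8 CPM with apoE4, *Dgcr8* 27.4 and 24.7 CPM, *Xpo5* 62.0 and 61.9 CPM, and *Dicer1* 73.6 and 87.7 CPM. *Trim71*, itself a let-7 target, had 6.28 and 4.54 CPM. The terminal uridylyl transferases *Zcchc11* (29.4 and 28.2 CPM) and *Zcchc6* (63.3 and 62.2 CPM) and the nuclease *Dis3l2* (log2 fold change -0.08), which act with LIN28 on the precursors, were close to the control. With the replicate block 1 gene was called against the control, *Trim25* (0.95, adjusted p 0.0316; 3.82 ± 3.02 CPM in the control and 7.37 ± 4.79 CPM with apoE4), a cofactor of that step, and against apoE3 1 gene was called, *Dicer1* (0.43, adjusted p 0.00861). Of all genes 3.3% and 1.76% were called in these comparisons, and 1 gene of 19 is no result about the list. The log2 fold changes of the other 10 tested genes with apoE4 ranged from -0.18 (*Hnrnpa1*, *Ddx5*) through -0.17 (*Tarbp2*), -0.11 (*Ddx17*), -0.09 (*Syncrip*), 0.01 (*Tut1*), 0.04 (*Khsrp*), 0.10 (*Prkra*) and 0.27 (*Msi2*) to 0.44 (*Msi1*), and edgeR called none of them with or without the block. DESeq2 with the block called *Ddx5* beside *Trim25* with apoE4 against the control, where 2.95% of all genes were called, and *Msi2* with apoE3, where 16% were.

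Mature let-7 is too short for these libraries, and precursor genes were barely counted. Of 12 precursor genes 2 passed the filter, *Mirlet7b* (0.494 CPM in the control, 0.379 CPM with apoE4) and *Mirlet7c-2* (0.408 and 0.351 CPM), and neither was called. Of 3 host and neighbouring genes in the files, *Mir99ahg* (7.87 and 7.66 CPM), *Huwe1* (343 and 424 CPM) and *Wdr82* (198 and 184 CPM), none was called. In both lists 0 had an unadjusted p under 0.05 with apoE4 against the control, and DESeq2 called 0. These values say nothing of the amount of mature let-7.

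Across all 13961 tested genes with an annotated 3′UTR, the 518 with an 8-base let-7 match had a median log2 fold change of 0.06 with apoE4 against the control, and the 12486 with no 7-base match one of 0.01. Of the former 2.9% and of the latter 0.817% were higher at the same cut-offs of fold and unadjusted p. Where the 3′UTR had 4000 bases or more, the shares were 5.3% of 132 and 3.03% of 825 genes, and from 2000 to 4000 bases they were 4.28% of 187 and 1.03% of 2613. From 1000 to 2000 bases they were 0 of 126 genes and 0.686% of 3206, and below 1000 bases 0 of 73 genes and 0.479% of 5842. The same count for the seed of miR-9 gave 2.29% and 0.845%, and for that of miR-125 2.23% and 0.882%, so that the share was higher with each of the 3 matches. In 3′UTRs of 4000 bases or more it was 5.23% against 3.12% for miR-9 and 2.65% against 3.21% for miR-125, and from 2000 to 4000 bases 1.99% against 1.34% and 2.99% against 1.25%. With apoE3 the let-7 shares were 1.54% and 1.33%. At edgeR's adjusted p under 0.05, apoE4 against the control called higher 8 of the 518 and 12 of the 12486. *Igf2bp1* is among the 8. For miR-9 the calls were 2 of 655 and 23 of 11953, and for miR-125 5 of 761 and 14 of 11787. In 3′UTRs of 4000 bases or more they were 6 of 132 and 7 of 825 for let-7. There miR-9 had 2 of 172 and 14 of 706, and miR-125 had 3 of 151 and 7 of 748. The median 3′UTR was 2532 bases long in genes with the 8-base let-7 match and 1096 bases in those with none, and the part of length beyond these bins was not tested.

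Markers of other cells are given because many of the 9 genes are known from progenitors and dividing cells. Of 8 astrocyte markers edgeR called none with apoE4 without the block (0 at an unadjusted p under 0.05, 0 by DESeq2) and 4 with it (*Gfap*, *Aqp4*, *Sox9* and *Gja1*), and their sum ranged from 1290 to 2730 CPM in the control, 1150 to 2640 with apoE2, 1530 to 5580 with apoE3 and 1430 to 4670 with apoE4. Of the 10 progenitor markers 9 were tested, of which 0 were called without the block (0 at an unadjusted p under 0.05, 0 by DESeq2) and 2 with it (*Nes* and *Vim*), and the sum ranged from 319 to 1590 CPM in the control and 402 to 3470 CPM with apoE4. None of these markers was at 0 in any library. In the same comparison the block called 1 of 8 oligodendrocyte lineage, 0 of 7 microglia, 2 of 10 fibroblast and mural, 1 of 3 tested endothelial and 0 of 8 neuron markers, where 3.3% of all genes were called. With apoE3 it called 7 of 8 astrocyte, 4 of 9 progenitor, 3 of 8 oligodendrocyte lineage, 0 of 7 microglia and 3 of 10 fibroblast and mural markers, all higher, where 11.7% of all genes were called. It also called 1 of 3 tested endothelial markers higher, and of 8 neuron markers 1 higher and 1 lower. The progenitor sum ranged from 503 to 4370 CPM with apoE3 and from 390 to 1830 CPM with apoE2. The part of these cells in the results was not tested. *Mki67* had 5.24 CPM in the control and 8.41 CPM with apoE4, *Top2a* 4.16 and 6.64 CPM, and none of 15 proliferation genes was called with apoE4 with or without the block (1 at an unadjusted p under 0.05, 0 by DESeq2). Of the 15, 14 had a log2 fold change above 0 with apoE4, with a median of 0.68 against 0.00 for all genes tested, and 14 with apoE3, with a median of 0.56 against 0.02. With apoE3 *Top2a* reached 23.5 CPM (2.5 on the log2 scale, adjusted p 0.202, and 0.000559 with the block) and with apoE2 14.7 CPM (1.83, adjusted p 0.651, and 0.014 with the block), and DESeq2 called both without the block. With apoE4 it was below apoE3 by a log2 fold change of -1.82 (adjusted p 0.217, and 0.00753 with the block), which DESeq2 also called.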

How the data were processed

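Reads had been mapped by the authors with STAR (build mm10) and counted per gene with HTSeq, and their processing notes also name Picard, bedtools, DESeq2 and R 3.3.0. The annotation release and the strand setting are not given in the sources used here. The deposited values are raw read counts per gene, 1 table for each of the 16 libraries. Rows that name no gene (unaligned, ambiguous or off genes), with 38.4 to 73.7% of each library, were left out. 

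Counts were fitted with edgeR 4.0.16 (R 4.3.3; TMM scaling, quasi-likelihood test, 4 groups in 1 model, Benjamini-Hochberg over 17038 genes, threshold 0.05), and *Hmga2* and *Lin28b*, under the low-count filter, were compared by exact two-sided permutation tests of their CPM. DESeq2 1.42.0, DESeq2 size factors, other filters, a replicate block and leaving out libraries were alternatives. The replicate numbers come from the labels. Deviations from the group means correlated at 0.362 to 0.831 between libraries of the same number in different groups and at -0.736 to 0.569 between those of different numbers. Since every pair of the same number was over 0.1, the numbers were taken to pair the libraries. That rule does not establish a pairing, since pairs of different numbers reached 0.569. The study's methods name no block, so that the block was an alternative and the fit without it the main one. With the block edgeR's common dispersion, its estimate of the spread, fell from 0.132 to 0.0178. What a shared number stands for is not given in the sources used here. The 9 genes and the lists were chosen with earlier results of these data known. By rule, genes named beyond the 9 are those called, all tested genes of the list on let-7 processing, *Mki67* and *Top2a*, the most abundant cell type markers, and the 3 most alike in pattern to *Igf2bp1*, *Hmga2* and *Lin28b* (Pearson's r of log2 CPM). *Lin28a* and the let-7 precursor, host and neighbouring genes were named after their values were seen. Gene models (GENCODE M21, GRCm38) matched 96.0% of the symbols. The values of some genes are not reported here.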

Additional observations from a re-analysis of the deposited data

Results flagged for a closer look

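*Igf2bp1* and *Plagl2* differed between groups that both received apoE, in the test of apoE4 against apoE2. The difference was 6.91 on the log2 scale for *Igf2bp1* (edgeR, adjusted p 0.00399, higher in 4 of 4 replicate numbers). For *Plagl2* it was 1.42 (edgeR, adjusted p 0.0303, higher in 4 of 4), a call lost without any 1 of 8 libraries (adjusted p of 0.0503 to 0.128). Isoform and astrocyte line cannot be told apart here.

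In 2 of 36 groups of 4 libraries 1 value lay far from the other 3, where chance gives about 1 in 20 groups. *Igf2bp3* was at 4.93 CPM in apoE2 replicate 1, against 3.31 to 3.49 CPM in the other apoE2 libraries, where replicate 1 of the other groups was at 4.86 to 5.22 CPM. *Arid3a* was at 6.76 CPM in apoE3 replicate 4, against 8.61 to 8.98 CPM, and replicate 4 was the lowest library of every group. The rate of 1 in 20 takes no account of the replicate numbers.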

How the results depend on the processing

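The number of the 9 genes called depended on the processing. With apoE4 against the control, 1 gene without the block became 2 with the replicate block, DESeq2, DESeq2 with the block, and the block without apoE2 replicate 4 and apoE4 replicate 2 (a choice made after seeing the data), and 0 with the stricter low-count filter, which removes *Igf2bp1*, and with only the 2 groups compared. Leaving out each library gave 0 to 2. Over all genes the calls of this comparison rose from 33 to 563 with the block, 91 with DESeq2, 937 with DESeq2 and the block and 952 with the block without those 2 libraries, and against apoE3 from 25 to 300, 70, 680 and 523. Against apoE3, 0 became 1 with DESeq2 size factors and with no filter and 2 with the replicate block, DESeq2, DESeq2 with the block and the block without those 2 libraries, and leaving out each library gave 0 to 1. Against apoE2, 2 became 1 with no filter, the stricter filter, only the 2 groups compared and without those 2 libraries, where 34, 39, 3 and 45 of all genes were called against 43, and leaving out each gave 1 to 2. Any difference fell from 2 to 1 with no filter, the stricter filter and without those 2 libraries (1 to 2 over single libraries), and rose to 3 (*Hmga2*, *Igf2bp1* and *Plagl2*) with the block without them. With apoE3, 0 became 3 against the control (DESeq2 with the block, and the block without those 2 libraries, where 16% and 15.8% of all genes were called) and 2 against apoE2 (DESeq2 with the block). For *Hmga2* and *Lin28b*, edgeR with no filter put 2 of 12 comparisons under an unadjusted p of 0.05, against 0 by permutation (0 to 1 over single libraries). Of the 9 most similar patterns 4 were shared without subtracting replicate means. For *Plagl2* with apoE3 the value near 0 turned to 0.02 with the block and 0.00 with DESeq2 and the block and with the block without those 2 libraries, and ran from -0.18 to 0.10 over single libraries. *Igf2bp3* with apoE3 ran from -0.17 to 0.07, and *Arid3b* from -0.38 to 0.03 with apoE3 and -0.20 to 0.11 with apoE4. Beyond the values given, the replicate block changed no other call among the 9 genes. The causes were not tested. All 36 group levels moved by less than 1 SD in plain CPM, and depth limits *Lin28b* and *Hmga2*, with 0 to 34 reads a library.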
